A study of Mus musculus with 18 samples.

Results

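The C91A mutant is a mouse embryonic stem cell line in which the catalytic cysteine of the deubiquitinase BAP1 is replaced by alanine (C91A), a knock-in that exchanges the catalytic residue. The 6 libraries described here, of 18 in the series, were taken by the source label of each sample: 3 carry the label of the C91A line after 4 days with 100 nM 4-hydroxytamoxifen (4-OHT), which induces Cre recombination, and 3 that of the same line at day 4 without it. They are called the C91A mutant and the untreated line below. Wild-type cells, with 3 libraries at day 4, serve as a further reference, and whether those cells received 4-OHT was not given in the sources used here. For the test of a difference between alleles, 3 libraries of a line labelled as a BAP1 knockout and given 4-OHT and 3 of that line without it were used as well. All cells were kept in emricasan, an inhibitor of caspases, and the labels call the cell type protected BAP1 embryonic stem cells. The untreated line lacks the drug as well as the recombination, so the allele, Cre activity and 4-OHT cannot be told apart in this comparison. Whether the 3 libraries of a group came from separate cultures, and whether the line is a single clone, was not given in the sources used here, so p-values measure the spread between these libraries only, which may be technical.

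BAP1 is the catalytic subunit of the Polycomb repressive deubiquitinase, in which it works with an ASXL partner. The complex removes the single ubiquitin that Polycomb repressive complex 1 (PRC1), through its E3 ligase RNF2, places on histone H2A at silent genes. In embryonic stem cells this mark covers many developmental genes, and BAP1 is known to keep it from spreading over the rest of the genome.

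The altered residue is shown in its coding context because it defines the allele. In GRCm38, Bap1 lies on the + strand of chromosome 14 from 31251450 to 31259944, and codon 91 lies in exon 5 of the 17 exons of transcript Bap1-201, at chr14:31253471-31253473. The 51 coding bases around it run from position 31253052 in exon 4 to position 31253497 in exon 5, without the intron, and the capitals mark the cysteine codon of the reference. The bases that replace it in the knock-in were not given in the sources used here.
Bap1: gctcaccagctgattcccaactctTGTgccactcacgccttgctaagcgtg

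The deposited tables give read counts for 36528 genes. Total counts were 14725343, 15336035 and 19205290 reads in the C91A mutant, against 14423812, 23013639 and 14922400 reads in the untreated line, within the 8106613 to 23039407 reads of the whole series. Levels below are CPM, counts scaled to a common library total with TMM factors. Fold changes are log2 values from edgeR's quasi-likelihood fit of all 18 libraries over 16875 genes, given with their standard error (n = 3 libraries a group) and with p-values adjusted over all of these genes by the Benjamini-Hochberg method. A gene is said to have risen, fallen or changed where its adjusted p is under 0.05. Libraries of a group lay close together: the root mean square difference in log2 CPM was 0.14 to 0.18 between mutant libraries and 0.15 to 0.18 between untreated libraries, against 0.49 to 0.52 between a mutant and an untreated library.

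Markers of the labelled cell type were present in every library. The summed level of 7 embryonic stem cell markers (Pou5f1, Sox2, Nanog, Zfp42, Esrrb, Dppa5a and Utf1) was 2370 to 2450 CPM in the C91A mutant, 3170 to 3530 CPM in the untreated line and 3140 to 3350 CPM in wild type. Markers of other cell types were low beside these. The 9 feeder fibroblast markers summed to 57.4 to 58.8 CPM in the mutant and 26.1 to 26.7 CPM in the untreated line, carried mainly by Col1a1 and Col1a2, while Dpt was at 0 in all 6 libraries. The 5 smooth muscle markers summed to 26.8 to 33.1 CPM in the mutant and 11 to 13.7 CPM in the untreated line, and the 5 trophoblast markers to 139 to 156 CPM and 115 to 118 CPM in these groups, with Krt7 carrying most of that sum. The 4 blood markers summed to 124 to 134 CPM in the mutant and 56.9 to 64.6 CPM in the untreated line, nearly all of it Cd68, with Hbb-bs at 0 throughout. The 4 neural markers did not differ in this way. They summed to 57.3 to 62.9 CPM in the mutant and 60.2 to 64.3 CPM in the untreated line, ranges that overlap, with Tubb3 carrying most of the sum. In bulk RNA, fewer cells of a type and less RNA per cell cannot be told apart, and the part of other cell types in the results below was not tested.

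The targeted transcript itself differed between the groups. Bap1 RNA stood at 163, 166 and 166 CPM in the mutant libraries, against 93.8, 84.8 and 88.0 CPM in the untreated libraries (log2 fold change 0.89 ± 0.05, adjusted p = 8.3e-19). The groups do not overlap, and the mutant level was close to the 178 CPM of wild type, from which it differed by -0.11 ± 0.05 on the log2 scale (adjusted p = 0.038). A count per gene cannot separate the C91A transcript from the unaltered one, so these values check the amount of Bap1 RNA and not the residue. Rnf2, which encodes the ubiquitin ligase that BAP1 opposes, had 119, 100.5 and 115 CPM in the C91A mutant and 95.3, 108 and 105 CPM in the untreated line, groups that overlap (log2 fold change 0.11 ± 0.06, adjusted p = 0.096).

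About as many genes rose as fell, and most changes were smaller than 2-fold. Of the 16875 genes tested, 4828 rose (28.6%) and 4452 fell (26.4%) in the C91A mutant relative to the untreated line. Changes of at least 2-fold were called for 793 genes that rose (4.7%) and 1073 that fell (6.36%), and 13 and 29 called genes moved by 3 log2 units or more. The median over all genes was -0.0066, with quartiles of -0.32 and 0.29. With upper quartile scaling in place of TMM that median moved to -0.10 and the split to 3720 genes higher and 5779 lower, so small changes are given relative to the bulk of genes. The CPM ranges of the groups did not overlap for 5111 genes that were higher in the mutant (30.3%) and 4779 that were lower (28.3%).

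The direction followed the level of the gene. Genes were split into 5 equal sets by their mean CPM over the 6 libraries. In the lowest set, 344 rose and 779 fell, with a median log2 fold change of -0.31. In the middle set 984 rose and 1026 fell, with a median of -0.02. In the highest set 1578 rose and 783 fell, with a median of 0.09. Changes of at least 2-fold lay mostly among the low genes: the lowest set held 627 such falls and the highest set held 5, while 2-fold rises numbered 284 in the lowest set and 55 in the highest. Of 1031 long noncoding RNA genes tested 119 rose and 251 fell (median -0.19). Of 68 small nucleolar RNA genes 17 fell and the rest did not pass, in libraries of polyadenylated RNA that capture such genes poorly. Over all genes 28.6% rose and 26.4% fell, so the falls in both RNA classes were near that share and the rises were fewer.

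**Figure D1:**
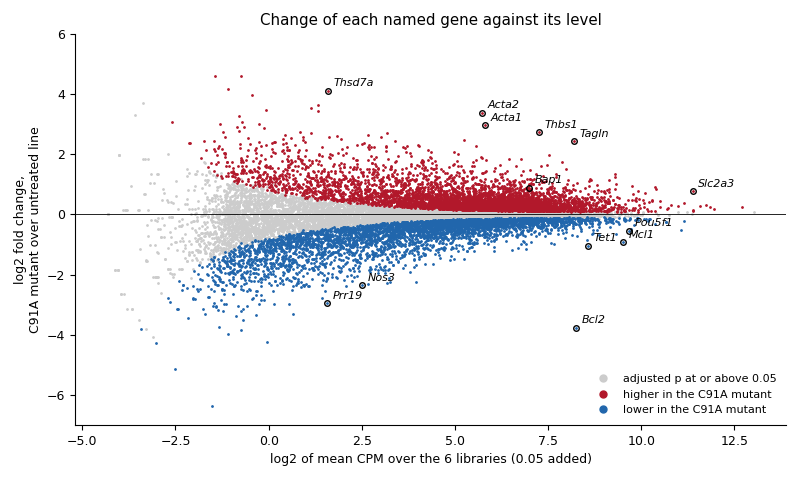
Log2 fold change of each named gene in the C91A mutant over the untreated line (vertical axis) against its mean level (log2 CPM, horizontal axis), with genes at adjusted p under 0.05 coloured by direction. The spread narrows from left to right, and strong falls lie among genes of low level while the highest of 5 level sets holds 1578 rises and 783 falls.

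Among the BCL2 family, which sets the threshold for apoptosis at the mitochondrion, the survival genes moved in opposite directions. Bcl2 had 5.04, 64.0 and 54.9 CPM in the mutant libraries, against 559, 548 and 598 CPM in the untreated libraries (log2 fold change -3.76 ± 0.23, adjusted p = 1.9e-17). All mutant libraries lay far below the untreated ones, but the first stood far below the other two, and without it the log2 fold change was -3.26. Mcl1 had 508, 514 and 499.9 CPM in the mutant libraries, against 953, 951 and 944 CPM in the untreated libraries (-0.91 ± 0.04), levels that lay tightly together within each group. Bcl2l1, which encodes BCL-XL, went the other way, with 160.0, 174 and 173 CPM in the C91A mutant and 75.6, 73.6 and 77.2 CPM in the untreated line (1.16 ± 0.05, adjusted p = 7.0e-22). Of 11 genes for proteins that promote apoptosis 4 rose and 4 fell (36.4% each, beside 28.6% and 26.4% of all genes). The rises included Bbc3 (PUMA) at 0.56 ± 0.06 and Pmaip1 (NOXA) at 0.40 ± 0.05 on the log2 scale, and the falls included Bak1 at -0.20 ± 0.05. Among 15 caspase, apoptosome and inhibitor genes 3 rose and 7 fell, with Apaf1 higher by 0.55 on the log2 scale. Of 13 death receptor and necroptosis genes 5 rose (38.5%) and 3 fell (23.1%), and 3 and 3 did under upper quartile scaling. The death receptor gene Fas had the largest rise of that list. Ripk3, the kinase that starts necroptosis, fell to 5.32, 4.16 and 5.20 CPM in the mutant, against 9.83, 11.01 and 16.2 CPM in the untreated line.

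The contractile actin cytoskeleton rose as a whole list. All 31 of its measured genes were higher in the C91A mutant (median log2 fold change 0.86, against -0.0066 over all genes), 11 of them by at least 2-fold. The smooth muscle actin Acta2 led them, with 90.7, 99.6 and 100.5 CPM in the mutant libraries, against 8.82, 9.35 and 9.70 CPM in the untreated libraries (3.38 ± 0.07, adjusted p = 4.8e-33). Skeletal actin Acta1 had 86.3, 99.7 and 109 CPM in the C91A mutant and 14.99, 12.3 and 10.9 CPM in the untreated line (2.96 ± 0.10). Tagln, which encodes the actin-binding protein transgelin, had 453, 508 and 509 CPM in the mutant libraries, against 91.5, 90.6 and 90.6 CPM in the untreated libraries (2.43 ± 0.05), and no mutant library came near the untreated range in any of these 3 genes. Per gene length, Tagln was the more abundant message, at 296 normalised RPKM in the mutant and 55.2 in the untreated line, with Acta2 at 33.0 and 3.18 normalised RPKM in these groups. Myh9, the heavy chain of non-muscle myosin II, was among the 8 genes with the largest gain in CPM, with 1631, 1777 and 1772 CPM in the C91A mutant and 958, 947 and 948 CPM in the untreated line (0.86 ± 0.05). Actg2, called at 2.36 ± 0.94, lost its call when any of 4 single libraries was left out and stood below 0.5 CPM in all 6 libraries. Actin genes share near-identical coding sequence, so reads may be split between Acta1, Acta2, Actc1 and Actg2. Of the defining smooth muscle markers, Myh11 stayed at or below 0.61 CPM in all 6 libraries, while Cnn1 and Lmod1 rose with the list (1.34 and 1.42 on the log2 scale).

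Serum response factor (SRF), with its actin-regulated MRTF partners, is known to bind CArG boxes near the start of contractile genes, so the promoters of the list are shown with that element. Of the 31 genes 29 matched the RefSeq promoter table (GRCm38.p6, 250 bases before to 50 after each start), and 10 of them (34.5%) held a CArG box, counted on either strand with up to 1 G or C among the 6 inner bases. Of all 12307 genes tested that matched, 1295 (10.5%) held one, and of the 556 genes with a match that rose at least 2-fold 54 did (9.71%). A match describes the letters in this window and is not a shown site. The 250 bases before the Acta2 start, chr19:34255374-34255623 of GRCm38.p6 on the - strand, hold 2 boxes, in capitals, which begin 84 and 34 bases before the start.
Acta2: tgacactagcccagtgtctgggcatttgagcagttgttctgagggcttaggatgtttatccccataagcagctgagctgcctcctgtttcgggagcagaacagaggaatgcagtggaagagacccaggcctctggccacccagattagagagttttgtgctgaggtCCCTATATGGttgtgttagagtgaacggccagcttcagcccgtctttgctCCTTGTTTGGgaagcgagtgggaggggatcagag
Boxes of other list members are shown with 10 bases on each side, each written on the gene's own strand, with its position in GRCm38.p6. These members were taken from the 10 that held a box. The holders not printed were Mrtfa, Myl12a and Myl6, with log2 fold changes of 0.23, 0.887 and 0.569.
Acta1, chr8:123894829-123894858 (-): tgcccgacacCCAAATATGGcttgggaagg
Actc1, chr2:114052903-114052932 (-): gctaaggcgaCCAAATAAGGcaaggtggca
Myl9, chr2:156775293-156775322 (+): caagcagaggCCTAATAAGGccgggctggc
Vcl, chr14:20929161-20929190 (+): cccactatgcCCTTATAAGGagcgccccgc
Cnn2, chr10:79988534-79988563 (+): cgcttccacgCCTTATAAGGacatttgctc
Srf, chr17:46556205-46556234 (-): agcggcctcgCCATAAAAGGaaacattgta
The genes printed differed widely in response: the log2 fold change was 2.23 ± 0.36 for cardiac actin Actc1 and 1.58 ± 0.11 for the myosin light chain Myl9. It was 0.89 ± 0.05 for Vcl (vinculin) and 0.88 ± 0.05 for the calponin gene Cnn2. Srf itself rose by 0.22 ± 0.06.

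**Figure D2:**
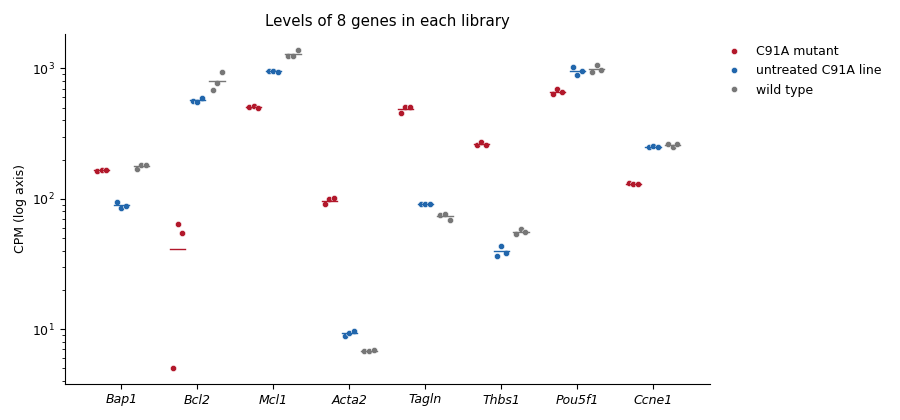
CPM on a log axis for 8 genes in each library of the C91A mutant, the untreated line and wild type, with points for libraries and a line at the group mean. Acta2, Tagln and Thbs1 stand above both references in all 3 mutant libraries, Bcl2, Mcl1, Pou5f1 and Ccne1 stand below both, and 1 mutant library has far less Bcl2 than the others.

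YAP and TAZ are coactivators that bind TEAD factors and raise growth and adhesion genes when the Hippo kinases are low. Of 22 measured target genes 19 rose in the C91A mutant and the other 3 did not pass, with a median log2 fold change of 1.19. The cytokine gene Tgfb2 had 15.4, 14.2 and 11.7 CPM in the mutant libraries, against 1.76, 2.38 and 2.67 CPM in the untreated libraries (2.58 ± 0.16). Igfbp3, which encodes a binding protein for insulin-like growth factors, had 175, 166 and 169 CPM in the C91A mutant and 46.3, 46.3 and 51.2 CPM in the untreated line (1.83 ± 0.06, adjusted p = 1.2e-27). Ankrd1 and Myof rose by 1.80 ± 0.21 and 1.65 ± 0.07. The targets that did not pass were Mybl1, Nuak2 and Gadd45a, with log2 fold changes of 0.09, 0.04 and -0.03. Of 17 genes of the pathway itself 11 rose and 6 did not pass, with the rises including Wwtr1 (TAZ) at 0.89 ± 0.05, Tead1 at 0.77 ± 0.05 and Tead3 at 0.99 ± 0.08. Vgll4, which competes for TEAD, rose as well, to 42.0, 44.9 and 43.0 CPM in the mutant, against 20.6, 19.3 and 23.2 CPM in the untreated line.

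The core of the TEAD binding element, GGAATG on either strand, was counted in the same promoters. It was present in 8 of the 15 YAP targets with a match (53.3%) and in 13 of 29 contractile genes (44.8%), against 1812 of 12307 genes tested (14.7%) and 109 of 556 genes that rose at least 2-fold (19.6%). The target list was made of genes named as YAP and TEAD targets, so its share may come from that choice and not from these data. As above, a match is not a shown site. Examples from the target list are shown with 10 bases on each side and the core in capitals, on the gene's strand.
Ankrd1, chr19:36119952-36119977 (-): cactaagtctGGAATGaaaattcacc
Axl, chr7:25788951-25788976 (-): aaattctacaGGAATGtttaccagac
Ccn1, chr3:145650073-145650098 (-): cgccaaccaaCATTCCtgagatgttt
Amotl2, chr9:102717729-102717754 (+): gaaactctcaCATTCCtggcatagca
Ptpn14, chr1:189728112-189728137 (+): tccccggacgCATTCCtggcccgccc
These genes are some of the 8 targets that held the core. Their log2 fold changes were 1.80 for Ankrd1, 1.44 for the receptor kinase gene Axl and 1.33 for the matricellular gene Ccn1. For Amotl2 and Ptpn14 they were 0.99 and 1.14. The holders not printed were Ajuba, Crim1 and Lats2, with log2 fold changes of 0.646, 1.622 and 1.535.

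Intermediate filament genes changed alongside. Of 14 keratin, vimentin and lamin genes 9 rose and 2 fell. The pair of simple epithelial keratins rose together: Krt18 had 835, 919 and 905 CPM in the mutant libraries, against 383, 357 and 377 CPM in the untreated libraries (1.25 ± 0.05), and Krt8 had 196, 214 and 215 CPM in the C91A mutant and 82.8, 81.5 and 82.9 CPM in the untreated line (1.34 ± 0.07). Wild type held less of both, with means of 240.5 CPM for Krt18 and 50.2 CPM for Krt8. Vim, which encodes vimentin, rose by 1.32 ± 0.06, and the lamin gene Lmnb2 fell (log2 fold change -0.49 ± 0.05).

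The extracellular matrix was the other large group that rose. Of 25 collagen genes 18 rose and 1 fell, with a median log2 fold change of 1.002. Col1a2, a chain of fibrillar collagen I, had 25.96, 27.1 and 26.4 CPM in the mutant libraries, against 5.49, 4.46 and 6.25 CPM in the untreated libraries (2.32 ± 0.11), above the wild-type mean of 10.9 CPM. Col5a1 had 86.1, 95.2 and 87.4 CPM in the C91A mutant and 25.2, 25.5 and 25.3 CPM in the untreated line (1.82 ± 0.06, adjusted p = 1.6e-25). Col5a3 was the exception and fell to 4.61, 4.77 and 5.31 CPM in the mutant, against 14.0, 13.4 and 11.98 CPM in the untreated line (-1.41 ± 0.14). In the fibroblast and feeder list, which shares genes with these, 8 of 17 genes rose and 2 fell (median 0.72). Against wild type 8 of that list were higher in the mutant and 6 lower, beside 29.9% and 28.5% of all genes. Of that list Dcn rose to 1.14, 1.57 and 1.92 CPM in the mutant, against 0.0678, 0.213 and 0.326 CPM in the untreated line, while Mfap5 fell (log2 fold change -0.90 ± 0.27).

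Among 36 matricellular and matrix-remodelling genes 26 rose and 2 fell (median 0.79). Thbs1, which encodes thrombospondin 1, an activator of latent TGF-beta, had 259, 275 and 260.3 CPM in the mutant libraries, against 36.4, 43.5 and 38.5 CPM in the untreated libraries (2.73 ± 0.06, adjusted p = 4.8e-33). The spread within each group is narrow beside the gap between them. The fibrillin gene Fbn2 rose by 1.94 ± 0.15 and the protease gene Adamts1 by 1.67 ± 0.11. Of 22 laminin and basement membrane genes 15 rose and 2 fell: Fras1, a link between epithelium and basement membrane, had 18.3, 16.2 and 18.7 CPM in the C91A mutant and 3.19, 3.19 and 3.52 CPM in the untreated line (2.43 ± 0.13), and Lama1 fell (log2 fold change -0.41 ± 0.05). Of 17 integrin genes 11 rose and 3 fell, with the hemidesmosome subunit Itgb4 at 0.998 ± 0.07 and Itgb7, otherwise a leukocyte subunit, at -1.76 ± 0.13. Mrc2, a receptor that takes up collagen fragments, had 64.3, 63.9 and 64.1 CPM in the mutant libraries, against 12.3, 11.1 and 11.1 CPM in the untreated libraries (2.49 ± 0.08), with 3 nearly equal values in each group.

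Cell junction genes rose in the C91A mutant, and here epithelial and mesenchymal genes did so together. Of 25 epithelial junction genes 19 rose and 3 fell (median 0.44). The desmosome genes Dsp and Dsc2 had 182 to 197 CPM in the mutant and 62.2 to 80.3 CPM in the untreated line for Dsp (1.46 ± 0.06) and 44.9 to 48.5 CPM in the mutant and 13.0 to 16.9 CPM in the untreated line for Dsc2 (1.66 ± 0.09). The tight junction genes Marveld2 and Ocln rose by 1.02 ± 0.08 and 0.89 ± 0.09, and Tjp3 fell (log2 fold change -0.37 ± 0.06). Of 19 mesenchymal genes 11 rose and 1 fell (median 0.99). Cdh2, the N-cadherin gene, had 25.8, 28.4 and 27 CPM in the mutant libraries, against 7.93, 8.25 and 6.64 CPM in the untreated libraries (1.82 ± 0.10). Snai2, a repressor of E-cadherin, rose by 2.34 ± 0.36, with levels under 1 CPM in each untreated library.

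**Figure D3:**
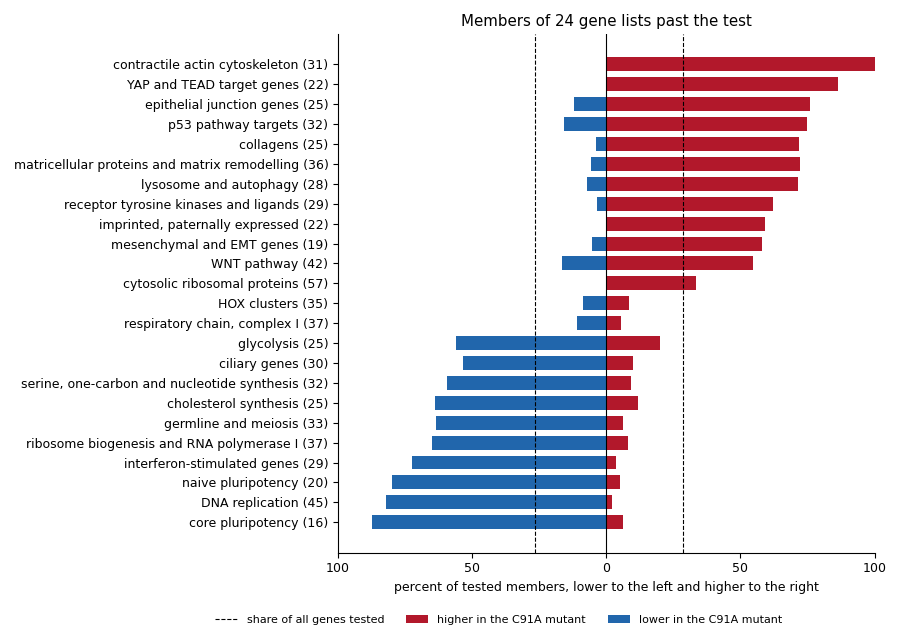
Percent of the tested genes of 24 lists that were higher (right of 0) or lower (left of 0) in the C91A mutant than in the untreated line at adjusted p under 0.05, with dashed lines at the shares over all 16875 genes, 28.6% higher and 26.4% lower. The contractile list has all of its 31 genes higher, and the replication list has 37 of 45 lower.

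Ligands, receptors and their partners changed in several signalling pathways, mostly upward. Of 26 genes of the activin, Nodal and TGF-beta pathway 16 rose and 5 fell. Besides Tgfb2, the activin antagonist Fst rose by 1.41 ± 0.15, while Inhbb, an activin subunit, fell to 3.12, 5.46 and 3.73 CPM in the mutant, against 11.1, 10.7 and 10.3 CPM in the untreated line (-1.39 ± 0.15). Of 21 BMP and ID genes 12 rose and 2 fell. Bmp1, a procollagen protease despite its name, had 104, 108 and 109 CPM in the C91A mutant and 50.5, 50.5 and 45.5 CPM in the untreated line (1.13 ± 0.06), the BMP target Id3 rose by 1.02 ± 0.07, and Bmp4 fell (log2 fold change -0.89 ± 0.10). Of 42 WNT genes 23 rose and 7 fell. Wls, the carrier that WNT ligands need for secretion, had 81.9, 76.6 and 77.5 CPM in the mutant libraries, against 15.3, 15.9 and 17.6 CPM in the untreated libraries (2.27 ± 0.07), and the ligand Wnt3 had 20.6, 21.2 and 19.8 CPM in the C91A mutant and 5.76, 5.14 and 3.78 CPM in the untreated line (2.06 ± 0.12). The receptor Fzd5 and the antagonist Sfrp1 fell, with log2 fold changes of -0.69 ± 0.06 and -0.64 ± 0.05.

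Of 29 receptor tyrosine kinase and ligand genes 18 rose and 1 fell (median 0.72). Egfr had 50.4, 50.5 and 53.7 CPM in the mutant libraries, against 14.1, 16.9 and 13.3 CPM in the untreated libraries (1.79 ± 0.08, adjusted p = 4.5e-22), and the groups lie far apart. The ligand gene Pdgfb rose by 1.26 ± 0.07 and the VEGF receptor Flt1 by 1.30 ± 0.12, while Tek fell (log2 fold change -0.40 ± 0.11). Of 21 FGF genes 12 rose and 4 fell. Fgf4, the autocrine ligand of embryonic stem cells, had 133, 135 and 136 CPM in the C91A mutant and 264, 264 and 272 CPM in the untreated line (-0.98 ± 0.04), and the receptor Fgfr2 rose by 0.69 ± 0.06. Among the feedback genes of ERK, the kinase downstream of FGF, Spry4 and Etv4 fell (-0.94 ± 0.07 and -0.91 ± 0.06) while Dusp5 and Il17rd rose (0.76 ± 0.09 and 0.67 ± 0.06). The counts for that list, 6 higher and 3 lower of 14, became 5 and 5 under upper quartile scaling. The AP-1 partner Fosl2 rose to 50.7, 52.1 and 50.2 CPM in the mutant, against 13.4, 11.5 and 11.6 CPM in the untreated line, and Fosl1 fell (log2 fold change -1.23 ± 0.19).

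Contact-dependent and guidance genes followed. Notch3 had 542, 559 and 555 CPM in the mutant libraries, against 248, 249.9 and 247 CPM in the untreated libraries (1.15 ± 0.04), while Dll3 and the fringe gene Mfng fell (-1.46 ± 0.15 and -1.24 ± 0.11). In that list 10 genes rose and 5 fell of 22, and 7 and 7 did under upper quartile scaling. Of 29 semaphorin, plexin and neuropilin genes 16 rose and 3 fell, with the secreted guidance cue Sema3c at 10.2 to 11.8 CPM in the mutant and 1.56 to 1.96 CPM in the untreated line (2.63 ± 0.16) and Sema4a lower (-1.58 ± 0.16). Of 20 ephrin and Eph receptor genes 12 rose and 4 fell, Efna5 by 1.91 ± 0.09 upward and Ephb6 by -0.61 ± 0.14. The Hedgehog transcription factor Gli3 rose by 1.26 ± 0.08.

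Pluripotency factors were lower. Of 16 core genes 14 fell and 1 rose, with a median log2 fold change of -0.37, and of 20 naive-state genes 16 fell and 1 rose (median -0.56). In the untreated line 15 of these naive genes were already higher than in wild type (median 0.23), beside 13.4% of all genes. Against wild type 8 naive genes were lower in the mutant and 3 higher (median -0.24). Over all genes, 28.5% were lower and 29.9% higher in the mutant than in wild type. The core list had 11 lower and 2 higher in the mutant than in wild type. Pou5f1, which encodes OCT4, had 637, 696 and 659 CPM in the mutant libraries, against 1032, 886 and 964 CPM in the untreated libraries (-0.53 ± 0.05, adjusted p = 5.1e-12). It was among the 8 genes with the largest loss of CPM. Sox2 and Nanog fell less, with log2 fold changes of -0.33 ± 0.04 and -0.26 ± 0.04. The exceptions were Lin28a, an RNA-binding repressor of let-7, at 0.23 ± 0.04, and the naive factor Tbx3, with 174, 173 and 161 CPM in the C91A mutant and 92.8, 80.2 and 82.7 CPM in the untreated line (0.99 ± 0.05). The largest proportional fall in the core list was that of Foxd3, a repressor of lineage genes, with 3.26, 4.64 and 2.96 CPM in the mutant libraries, against 13.8, 13.8 and 13.4 CPM in the untreated libraries (-1.93 ± 0.13). In the naive list, Tcl1, Gbx2, Nr5a2 and Nr0b1 fell by more than 2-fold, from -1.35 for Tcl1 to -1.07 for Nr0b1 on the log2 scale.

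Lineage genes did not move as 1 block. Endoderm genes, primitive and visceral, numbered 21, with 11 rises and 3 falls, led in level by Lrp2, an endocytic receptor also found in other epithelia, with 269.8, 251 and 284 CPM in the C91A mutant and 79.3, 95.4 and 83.2 CPM in the untreated line (1.64 ± 0.06). The endoderm markers fixed for the check of cell types summed to 14.9 to 15.3 CPM in the mutant, 11.3 to 12.5 CPM in the untreated line and 19.5 to 22.8 CPM in wild type. In the formative list Sox4 and Sall2 rose (1.195 ± 0.07 and 1.16 ± 0.10) and Tcf15, Etv4 and Otx2 fell (-1.65 ± 0.09, -0.91 ± 0.06 and -0.71 ± 0.13). Of 16 mesoderm and primitive streak genes 7 rose (43.8%) and 2 fell (12.5%), with a median of 0.77. Of 19 trophoblast genes 7 rose and 6 fell. Eomes, a factor of trophoblast and mesendoderm, was among the falls, with 2.41, 3.14 and 2.14 CPM in the mutant, against 6.38, 6.42 and 6.12 CPM in the untreated line. Of 17 neuroectoderm genes 9 rose (52.9%) and 2 fell (11.8%), with a median of 0.41, beside 28.6% and 26.4% of all genes. Nes, which encodes nestin, rose by 1.18 ± 0.07, while the early neural factor Sox1 was among the falls (log2 fold change -0.71 ± 0.16). Among 35 HOX genes 3 rose and 3 fell, each called gene below 2 CPM in all 6 libraries, and 4 of these calls were lost in at least 1 alternative setting.

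Genes of the germline, which Polycomb and DNA methylation are known to keep silent in embryonic stem cells, fell. Of 33 tested 21 fell and 2 rose (median -0.56), although most were low to begin with. Adad2, expressed in the testis, fell to 1.35, 1.43 and 1.26 CPM in the mutant, against 6.24, 7.27 and 7.29 CPM in the untreated line, and Rec8, the meiotic cohesin, rose by 0.57 ± 0.06. Of 30 ciliary genes 16 fell and 3 rose (median -0.26), with the transport genes Ift57 at -1.01 ± 0.11 and Bbs9 at -0.82 ± 0.11. Among imprinted genes, 13 of 22 paternally expressed genes rose and 9 did not pass. Of 17 maternally expressed genes 10 rose and 3 fell, so genes of both parental classes were higher. Grb10, a brake on insulin signalling, had 867, 835 and 862 CPM in the mutant libraries, against 415, 435 and 434 CPM in the untreated libraries (0.997 ± 0.04), and the growth restrictor Phlda2 fell (log2 fold change -0.47 ± 0.05).

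Replication genes fell together by small amounts. Of 45 genes 37 fell and 1 rose (Dbf4, at 0.18 ± 0.05), with a median log2 fold change of -0.24 and no change of 2-fold or more. Pole2, the second subunit of DNA polymerase epsilon, had 20.01, 18 and 19.7 CPM in the C91A mutant and 29.5, 29.6 and 31.5 CPM in the untreated line (-0.65 ± 0.08). Rpa2, which coats single-stranded DNA, had 99.4, 105 and 101 CPM in the mutant libraries, against 149.7, 148 and 145 CPM in the untreated libraries (-0.54 ± 0.05), and Ung, the uracil glycosylase, fell by a similar step (-0.63 ± 0.04). The groups do not overlap in these 3 genes. Ccne1, the cyclin that drives entry into S phase, had 132, 131 and 130.0 CPM in the mutant libraries, against 248, 255 and 249 CPM in the untreated libraries (-0.94 ± 0.04, adjusted p = 9.3e-22). The inhibitor Cdkn1a (p21) rose to 188, 192 and 189.6 CPM in the mutant, against 118, 106 and 118 CPM in the untreated line, and E2f2 fell (-1.35 ± 0.15). The list of 29 cyclins, CDKs and their inhibitors that holds these genes was balanced, with 12 rises and 12 falls (41.4% each, median 0.008). Upper quartile scaling gave 11 and 13. Ccnd2 had the largest rise of that list, and Ccnd3 and Rbl2 were also among its falls. Among 32 homologous recombination and Fanconi genes 15 fell and 17 did not pass, with Fanca at -0.65 ± 0.06 and Brca1 at -0.40 ± 0.05, and 27 fell under upper quartile scaling. Of 35 mitotic genes 11 rose (31.4%, near the 28.6% of all genes) and 6 fell (17.1%, beside 26.4% of all genes). Upper quartile scaling turned these counts to 2 and 10.

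E2F factors are known to bind TTGGCGC and TTCCCGC near the start of replication genes. Counted on either strand, these words were present in 20 of the 37 replication genes with a promoter match (54.1%), against 1664 of 12307 genes tested (13.5%). They were present in 66 of the 784 genes with a match that fell at least 2-fold (8.42%), a set that holds no gene of the replication list. Examples are shown with 10 bases on each side, on the gene's strand, with the word in capitals.
Pole2, chr12:69228164-69228190 (-): gtcggcggtgGCGCCAAatcgcgaaca
Prim1, chr10:128015190-128015216 (+): gcctgtcttgTTCCCGCcaattctcgt
Rpa2, chr4:132768313-132768339 (+): ctgtcccttcGCGGGAAggagtttgtg
Cdc6, chr11:98908003-98908029 (+): ccggtggagaGCGGGAAatcgcctggg
Prim1, the small primase subunit, and Cdc6, a loader of the MCM helicase, fell with log2 fold changes of -0.51 ± 0.06 and -0.46 ± 0.06. The genes printed were among the larger falls of those that hold a word. Other holders had log2 fold changes near 0, such as Orc3 at -0.006, Rfc4 at -0.045 and Lig1 at -0.072.

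Biosynthetic genes fell by similarly small steps. Of 37 ribosome biogenesis genes 24 fell and 3 rose (median -0.20), among them Polr1b, a core subunit of RNA polymerase I, at -0.74 ± 0.05 and Rrp9 at -0.72 ± 0.05. Ncl, the abundant nucleolar protein gene nucleolin, had 2079, 2075 and 2097 CPM in the C91A mutant and 2473, 2421 and 2421 CPM in the untreated line (-0.23 ± 0.03). Cytosolic ribosomal protein genes, many of which have near-identical pseudogenes that can take reads, had 19 rises of 57 (33.3%, near the 28.6% of all genes), and 38 did not pass (median 0.10). Upper quartile scaling gave 6 rises and 3 falls with a median of 0.008, and the count of rises was 12 without the second untreated or without the third mutant library. Of 38 mitochondrial ribosome genes 17 fell and 4 rose. Of 32 serine, one-carbon and nucleotide synthesis genes 19 fell and 3 rose, with Dhodh of pyrimidine synthesis at -0.88 ± 0.06 and Shmt1 at -0.55 ± 0.04.

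Of 25 glycolysis genes 14 fell and 5 rose. Slc2a3, the glucose transporter GLUT3, had the largest gain in CPM of any named gene, with 3326, 3289 and 3418 CPM in the mutant libraries, against 1899, 2052 and 1945 CPM in the untreated libraries (0.77 ± 0.03). Pfkfb3, which makes the activator of phosphofructokinase, had 119, 122 and 129 CPM in the C91A mutant and 44.5, 47.2 and 45.3 CPM in the untreated line (1.43 ± 0.06). The other rises were those of the enolase gene Eno2 at 0.68 ± 0.08, the transporter Slc2a1 at 0.31 ± 0.04 and the lactate carrier Slc16a1 at 0.24 ± 0.05. The phosphofructokinase genes Pfkm and Pfkp fell, Pfkm by -1.08 ± 0.06 and Pfkp by -0.65 ± 0.04, and Aldoa had the largest loss in CPM, with 1636, 1825 and 1826 CPM in the mutant libraries, against 2680.0, 2398 and 2515 CPM in the untreated libraries (-0.52 ± 0.05). Of 25 cholesterol synthesis genes 16 fell and 3 rose, Lss (lanosterol synthase) among the falls at -0.51 ± 0.05 and the regulator Srebf2 among the rises at 0.24 ± 0.04. Of 21 fatty acid genes 12 fell and 5 rose, with Acsl1 at -0.96 ± 0.07. Epas1, which encodes HIF-2 alpha, fell to 19.6, 21.2 and 19.9 CPM in the mutant, against 46.1, 49.4 and 46.4 CPM in the untreated line, while Hif1a rose by 0.56 ± 0.06.

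Lysosomal and p53 target genes rose. Of 28 lysosome and autophagy genes 20 rose and 2 fell (median 0.45). Sqstm1, the autophagy receptor p62, had 1666, 1779 and 1774 CPM in the mutant libraries, against 950.5, 911 and 900.1 CPM in the untreated libraries (0.92 ± 0.04, adjusted p = 1.0e-22), and the cathepsin genes Ctsl and Ctsb rose by 0.78 ± 0.04 and 0.75 ± 0.04. Npc1, the exporter of lysosomal cholesterol, had 299, 290.5 and 308 CPM in the C91A mutant and 166, 186 and 173 CPM in the untreated line (0.77 ± 0.04). Of 32 p53 targets 24 rose and 5 fell (median 0.45). Ptpn14, which is also on the YAP target list, had the largest rise (1.14). Perp, a desmosome-linked p53 target, had 160.5, 157 and 159 CPM in the C91A mutant and 70.9, 74.7 and 73.5 CPM in the untreated line (1.12 ± 0.05). The repair nuclease Ercc5 rose by 0.87 ± 0.05. Gdf15 had the largest fall of the list, ahead of Sesn1 and Tigar (-0.54 ± 0.09 and -0.38 ± 0.05). The stress kinase list had 9 of 13 genes higher and 1 lower, with Jun at 0.53 ± 0.06.

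Interferon-stimulated genes were lower in the C91A mutant than in the untreated line, but the untreated line stood above wild type. Of 29 genes 21 fell and 1 rose in the mutant (median -0.59). Against wild type, 19 were higher in the mutant and 5 lower (median 0.48), where the shares over all genes were 29.9% and 28.5%. In the untreated line 26 were higher than in wild type (median 0.79), beside 13.4% of all genes. The comparisons share libraries. Ifit1, a sensor of foreign RNA, had 0.851, 0.955 and 0.712 CPM in the mutant libraries, against 2.37, 3.15 and 2.93 CPM in the untreated libraries, beside 0.449 CPM in wild type (-1.76 ± 0.29). Oasl1 had 0.709, 1.02 and 1.26 CPM in the C91A mutant and 4.00, 4.85 and 5.14 CPM in the untreated line, beside 2.12 CPM in wild type (-2.19 ± 0.25). These genes were low, so each value rests on few reads. Gbp2, an interferon-induced GTPase, was the 1 member that rose, with 60.4, 62.4 and 68.6 CPM in the mutant libraries, against 21.8, 25.4 and 22.6 CPM in the untreated libraries, beside 12.8 CPM in wild type (1.45 ± 0.08). In antigen presentation B2m and Tap1 rose (0.71 ± 0.07 and 0.82 ± 0.07) and the immunoproteasome gene Psmb10 fell (-0.81 ± 0.10). Of the 17 genes of that list 6 rose (35.3%) and 3 fell (17.6%), beside 28.6% and 26.4% of all genes, with a median of -0.08. Upper quartile scaling gave 6 rises and 7 falls.

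**Figure D4:**
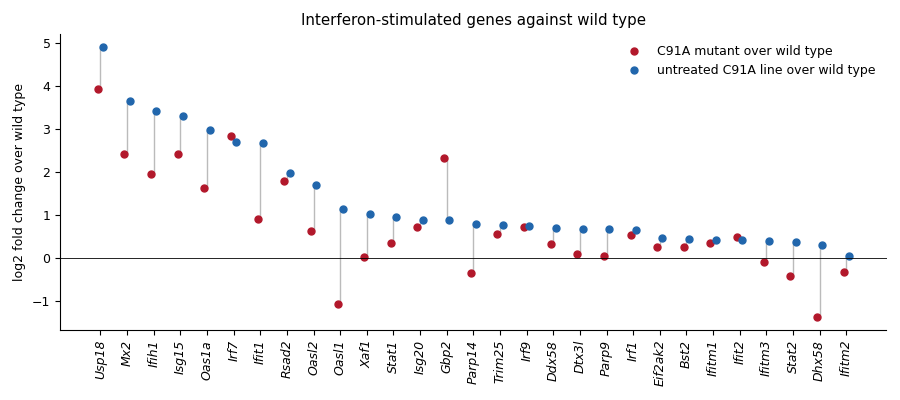
Log2 fold change over wild type of each of 29 interferon-stimulated genes in the C91A mutant and in the untreated C91A line. Of these genes 26 are higher than wild type in the untreated line and 19 in the mutant, and most mutant points lie below those of the untreated line.

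Genes for the chromatin machinery around BAP1 moved in both directions, as did all genes tested, of which 28.6% rose and 26.4% fell. Of 13 subunits and partners of the BAP1 complex 7 rose and 1 fell. Besides Bap1, the methyl-binding partners Mbd5 and Mbd6 rose (0.66 ± 0.12 and 0.72 ± 0.06), although Mbd6 overlaps Ddit3, which also rose (0.52 ± 0.06), and reads could be shared. Asxl1 and Hcfc1 did not pass, at 0.05 ± 0.04 and -0.06 ± 0.05. Of 25 PRC1 genes 10 rose and 4 fell (9 and 5 under upper quartile scaling, with a median of -0.03 there and 0.07 under TMM). Bcorl1 rose by 1.13 ± 0.12, and Phc1 fell (-0.47 ± 0.04). In PRC2, which writes H3K27 methylation, 4 of 15 genes rose (26.7%, near the share of all genes) and 6 fell (40.0%). Under upper quartile scaling 2 rose and 7 fell. The accessory genes Phf19 and Jarid2 fell (-1.15 ± 0.08 and -0.70 ± 0.05), as did Suz12 (-0.32 ± 0.06), while Lcorl, Rbbp7, the catalytic gene Ezh2 and Epop rose by 0.38, 0.20, 0.15 and 0.14 on the log2 scale. Usp22 rose by 0.38 ± 0.04 while Usp16, another H2A deubiquitinase gene, fell (-0.37 ± 0.08).

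The TET genes, whose products oxidise methylated cytosine, diverged. Tet1 had 246, 253 and 249.9 CPM in the mutant libraries, against 450.0, 566 and 514 CPM in the untreated libraries (-1.03 ± 0.06, adjusted p = 2.4e-19), and Tet2 fell too (-0.50 ± 0.08). Tet3 had 29.2, 26.2 and 27.4 CPM in the C91A mutant and 12.3, 14.6 and 12.2 CPM in the untreated line (1.07 ± 0.09), so the groups do not overlap in either direction. Dnmt3l, a cofactor of DNA methylation, fell (-0.55 ± 0.04). In the MYC network Mycn fell to 90.2, 96.2 and 87.5 CPM in the mutant, against 172, 171 and 175 CPM in the untreated line (-0.92 ± 0.05), and the MYC antagonist Mnt rose by 0.73 ± 0.06.

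A few genes were nearly off in a group. Under 1 CPM in each untreated library and at least 3 CPM in each mutant library were 6 genes, led by Thsd7a, a thrombospondin-type membrane protein gene, with 5.25, 6.14 and 5.42 CPM in the mutant libraries, against 0.203, 0.383 and 0.326 CPM in the untreated libraries (4.12 ± 0.29). The others were Pcdh7, Eya4, Adamts5, Ccdc80 and Kcnq3, with log2 fold changes between 2.47 and 3.64. The reverse held for 3 genes: Prr19, with 0.780, 0.341 and 0.822 CPM in the mutant libraries, against 5.22, 4.93 and 5.27 CPM in the untreated libraries (-2.95 ± 0.23), the transferrin receptor gene Tfr2 (-2.53 ± 0.24) and Dnajc12 (-2.38 ± 0.27). Below Bcl2, the strongest falls of genes with at least 2 log2 CPM on average included Nos3, endothelial nitric oxide synthase, with 1.49, 2.05 and 1.97 CPM in the C91A mutant and 8.54, 9.86 and 9.90 CPM in the untreated line (-2.35 ± 0.16), and the repressor gene Zbtb32, with 4.04, 6.14 and 5.92 CPM in the C91A mutant and 24.1, 25.3 and 27.02 CPM in the untreated line (-2.23 ± 0.11).

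The X chromosome stood apart in its share of rises. Of 559 X-linked genes tested 39.0% rose and 14.8% fell, with a median log2 fold change of 0.16, while the median of these genes in the untreated line against wild type was -0.05. On chromosome 8, 20.2% of 860 genes rose and 39.8% fell, with a median of -0.13. That chromosome was also low in the untreated line against wild type, at the same median of -0.13. The medians of the other autosomes lay between -0.07 and 0.09. Genes of a chromosome are not independent, and no test was made of these shares.

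Against wild type the C91A mutant had 5040 genes higher (29.9%) and 4802 lower (28.5%). The untreated line, which shares neither drug nor recombination with the mutant, already had 2261 genes higher (13.4%) and 2403 lower (14.2%) than wild type, and the comparisons share libraries. For the imprinted gene Nnat the mutant had 31.5, 31.0 and 33.8 CPM, the untreated line 12.7, 10.5 and 11.3 CPM and wild type a mean of 1.08 CPM. For Calcoco2, an autophagy receptor gene, the mutant had 16.3, 15.3 and 15.2 CPM, the untreated line 25.1, 28.0 and 24.4 CPM and wild type 1.21 CPM. In both genes the untreated line stood above wild type without the treatment. For Acta2 and Acta1 the wild-type means of 6.80 and 5.03 CPM lie below the untreated values given above. The contractile list had 30 of 31 genes higher in the mutant than in wild type, and the YAP targets 20 of 22. Other lists that were mostly higher against the untreated line were more mixed against wild type, where the untreated line lay lower: 10 of 19 mesenchymal genes were higher and 5 lower, with 21 and 10 of 36 matricellular genes. The endoderm list had 10 higher and 6 lower of 21 against wild type, with a median of 0.17 beside 0.81 against the untreated line.

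The change in the C91A mutant was set against that in the line labelled as a BAP1 knockout, called the knockout here, each relative to its own untreated line, by a test of the difference between the effects, which share no library. Bap1 RNA itself was only slightly lower there, with 150.7, 147 and 151.5 CPM in the libraries labelled knockout and given 4-OHT, against 170.0, 167 and 169 CPM in that line without it (log2 fold change -0.17 ± 0.05, adjusted p = 0.0027). Which part of the gene is deleted was not given in the sources used here, so a count over the whole gene does not check that label. In the knockout 5283 genes rose (31.3%) and 5109 fell (30.3%), 812 (4.81%) and 1771 (10.5%) of them by at least 2-fold. The effect differed between the alleles for 4375 genes (25.9%): it was higher in the C91A line for 2321 (13.8%) and lower for 2054 (12.2%). Differences of at least 2-fold were uneven, with 449 genes higher (2.66%) and 87 lower (0.516%) in the C91A effect. The knockout and C91A lines were each compared with a separate untreated line, and lines and alleles cannot be told apart.

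Gene groups diverged in different ways. The contractile list rose with both alleles, 31 genes in the C91A line and 27 in the knockout (medians 0.86 and 0.64), and the effect was higher in the C91A line for 16 and lower for 1. For epithelial junction genes the counts were 19 higher and 3 lower with C91A, against 9 and 10 in the knockout, and the C91A effect was higher for 19 of 25 genes. Of 25 collagen genes 12 had a higher effect of C91A and 13 did not differ at the threshold. Lysosomal genes rose in both, 20 with C91A and 22 in the knockout of 28, and the C91A effect was lower for 14 of them. Of 57 cytosolic ribosomal protein genes 19 rose with C91A and 47 in the knockout, and the C91A effect was lower for 40. For the ERK feedback list the C91A effect was higher for 10 of 14 genes and lower for 1, with Spry4 differing by 1.48 ± 0.10. Core pluripotency genes fell with both alleles (14 with C91A and 13 in the knockout of 16), and the C91A effect was higher for 6 of them and lower for 5. Foxd3 and L1td1 fell less with C91A, by differences of 1.68 ± 0.24 and 0.78 ± 0.07, and Fbxo15 and Sall4 had the lower effect there, with differences of -0.62 ± 0.09 and -0.36 ± 0.06.

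**Figure D5:**
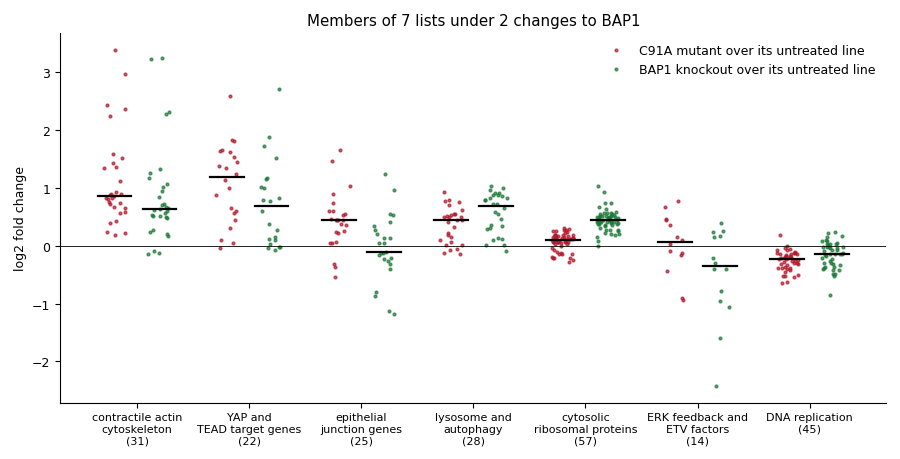
Log2 fold change of each gene of 7 lists in the C91A mutant over its untreated line and in the BAP1 knockout over its own untreated line, with bars at the medians. Epithelial junction genes have a median of 0.44 with C91A and -0.11 in the knockout, and cytosolic ribosomal protein genes 0.10 and 0.44.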

How the data were processed

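Polyadenylated RNA of mouse embryonic stem cells was isolated with RNeasy kits, made into TruSeq v2 libraries and read as single 50 base ends on a HiSeq4000, per the labels' protocols. The aligner was GSNAP and the genome build GRCm38, per the submitters' processing notes. Each deposited table holds raw read counts per gene made by the authors, which were the basis of every test, and the authors' normalised RPKM, per the file headers, which was used only for levels between genes of different length. How reads were assigned to strands was not given in the sources used here, so overlapping and antisense genes may share reads.

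Groups came from the source labels. The 18 libraries were fitted as 6 group means in edgeR 4.0.16 (R 4.3.3) with TMM scaling (factors 0.922 to 1.076), filterByExpr on the groups and quasi-likelihood tests, and p-values were adjusted over 16875 genes by the Benjamini-Hochberg method with a threshold of 0.05. The fitted common dispersion of 0.002 corresponds to a coefficient of variation of 4.47%. Each standard error was taken as the fold change on the log2 scale over the root of its F statistic. The same fit gave the comparisons with wild type and the difference between the C91A and knockout effects. The scripts were tested on simulated data. Each sample's file lists 36528 genes, of which 31049 took a symbol from RefSeq and 77 from GENCODE, and 5402 have none; 9236 had 0 counts in all 18 libraries. Replicate libraries differed beyond counting noise, with a chi-square over degrees of freedom of 1.77 to 5.78 for each pair, and none was treated as a copy. Promoters and sites came from RefSeq for GRCm38.p6. The 3 libraries labelled dKO_D4_4OHT entered the shared fit and no comparison.

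The comparison and the gene lists were chosen with earlier results of these data known. Genes are named by rule: Rnf2, Mcl1, Bap1 and Bcl2; the 15 strongest rises and 15 strongest falls with non-overlapping groups and mean log2 CPM no lower than 2; the 8 largest gains and losses in CPM; genes between under 1 and at least 3 CPM; up to 4 called members of each list in each direction; extremes of the difference from the knockout effect and from wild type; and the 6 widest spreads within the mutant. Other names in the text are cell type markers, promoter examples or list members that stand out in a list, chosen after their values were seen. The alternatives were DESeq2 1.42.0, upper quartile scaling, the authors' size factors, no filter, equal depth and leaving out each library. A few results are not reported here.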

Additional observations from a re-analysis of the deposited data

Results flagged for a closer look

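The effect of C91A differed from that of the knockout, each against its own untreated line, for 2321 genes that were higher and 2054 that were lower in the C91A effect, by edgeR's quasi-likelihood test of the difference. Among the genes fixed for every comparison, the difference was 3.74 on the log2 scale for Bcl2, 1.07 for Bap1 (0.89 in the C91A line and -0.17 in the line labelled knockout) and 0.53 for Mcl1. The genes with the most positive differences besides Bcl2 were Inhbb at 2.72, the riboflavin transporter gene Slc52a3 at 2.60, the keratin gene Krt17 at 2.33 and Gm29695 at 2.20. In each of these the knockout effect was the more negative. Inhbb averaged 4.10 CPM in the C91A mutant and 10.7 CPM in its untreated line, and 2.18 CPM in the knockout and 39.3 CPM in its untreated line. The untreated lines themselves therefore stood apart for this gene.

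The most negative differences were those of Gadd45g at -1.46, Tchh at -1.26, Lbh at -1.23, the ubiquitin ligase gene Mid1 at -1.21 and the myosin light chain gene Myl3 at -1.18. Gadd45g, a stress-induced growth arrest gene, averaged 273 CPM in the C91A mutant and 265 CPM in its untreated line, and 493 CPM in the knockout and 174 CPM in its untreated line. Mid1 averaged 20.3 CPM in the C91A mutant and 22.9 CPM in its untreated line, and 1.79 CPM in the knockout and 0.915 CPM in its untreated line, beside 1.95 CPM in wild type.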

How the results depend on the processing

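Counts of changed genes kept within 1.5 times their reported values under all alternatives that were run. Genes higher in the C91A mutant than in the untreated line numbered 3720 (upper quartile scaling) to 4744 (DESeq2 size factors in edgeR) over the alternatives, and genes lower 3738 (all libraries thinned to equal depth) to 5779 (upper quartile scaling). DESeq2 called 4571 higher and 4287 lower, and the authors' size factors 4709 and 4530. Leaving out single libraries gave 4279 to 4615 higher and 4059 to 4171 lower. The difference between the C91A and knockout effects gave 1911 to 2236 genes higher and 1685 to 2022 lower when single libraries were left out. Of the values for named genes 7278 kept direction and side of the threshold, 309 lost and 10 gained the threshold, and 4 turned direction. Those 4 belong to 2 genes that did not pass: Gadd45g moved to -0.045 under upper quartile scaling, and to between -0.015 (without the second untreated library) and 0.108 when single libraries were left out. Myl3 moved to 0.088 without the first untreated and 0.015 without the third mutant library, in a range of -0.079 to 0.088. Of the list counts 2021 stayed within 1.5 times and 135 did not, mostly counts of few genes. No paired analysis was possible because the labels number no replicates. At these depths genes of the lowest of 5 level sets, under 0.83 log2 CPM, are measured least precisely, and strong falls there rest on few reads.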

Other observations

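Within the C91A mutant a few genes of at least 2 mean log2 CPM varied widely between libraries, besides Bcl2. Mir703 had 10.2, 6.34 and 2.96 CPM in the mutant libraries, against 3.05, 4.804 and 3.52 CPM in the untreated libraries. Qprt, an enzyme gene of NAD synthesis, had 2.20, 4.98 and 3.67 CPM in the mutant and 13.2, 12.2 and 11.2 CPM in the untreated line. Its mutant libraries differ among themselves but all lie below the untreated ones. Exoc3l had 1.92, 3.07 and 4.71 CPM in the mutant and 18.4, 14.1 and 15.04 CPM in the untreated line. Eda and Zfp420 spread as widely in the mutant, and their groups overlap.

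The most abundant of the genes with large gains encode the translation machinery and the cytoskeleton. Eef2, a translation elongation factor gene, had 6874, 7408 and 7529 CPM in the mutant, against 6348, 6080 and 6099 CPM in the untreated line, and a wild-type mean of 7187 CPM. Tubb5, a tubulin gene with close paralogs, had 3573, 3800 and 3879 CPM in the mutant and 3050, 3007 and 2998 CPM in the untreated line. Among abundant falls, the metallothionein gene Mt2 had 472, 509 and 509 CPM in the mutant and 797, 762 and 771 CPM in the untreated line. Txnip, a sensor of glucose and redox state, had 1228, 1177 and 1171 CPM in the mutant and 1463, 1498 and 1462 CPM in the untreated line, with a wild-type mean of 1859 CPM.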
